A study of Mus musculus with 14 samples.

Results

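The genes described here encode the subunits, activators and assembly factors of the proteasome, measured by RNA-seq in neutrophils sorted from mouse blood. Members were the rows of the deposited table whose mouse symbol begins with Psma, Psmb, Psmc, Psmd, Psme, Psmf or Psmg and a number, pseudogenes excluded, with a mean value of at least 1 over all libraries. This gave 44 genes of 11288 in the table, and all 44 that met the symbol rule passed the level rule. The annotation lists 50 such symbols, and the other 6 (Psma8, Psmc3ip and Psmg1 to Psmg4) were not analysed here.

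Neutrophils came from male C57BL/6 mice of 7 to 10 weeks, kept specific-pathogen-free, whose freshly drawn blood was freed of red cells by lysis, stained for Ly6G with the 1A8 antibody and sorted. The 14 libraries fell into 5 groups. Wild-type (WT) neutrophils were taken at zeitgeber time (ZT) 5, which the labels give as 12 h on the clock, with n = 3, and at ZT13, 20 h on the clock, with n = 3. Neutrophils carrying floxed alleles and the Mrp8Cre transgene, which is driven by a promoter active in neutrophils and other myeloid cells, were taken at ZT5 only: Bmal1 f/f with n = 3, Cxcr2 f/f with n = 2 and Cxcr4 f/f with n = 3. All 3 mutant groups carry the Cre and neither WT group does, so against WT the Cre and the deletion cannot be told apart. The labels do not say that replicates are separate animals, so the p-values measure only the spread between these libraries, which may be technical. The same WT ZT5 libraries are the control in 4 of the 7 comparisons made.

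The targeted genes were looked at first. Cxcr4 had normalized read counts of 13.2 to 26.2 in the Cxcr4-deficient libraries and 268 to 553 in WT ZT5. Cxcr2 had 1354 and 1439 in the libraries labelled Cxcr2-deficient, inside the WT ZT5 range of 1322 to 2219. Arntl, the gene of BMAL1, was low everywhere, at 12.7, 5.28 and 2.68 in WT ZT5 and at 4.37, 0 and 0 in the libraries labelled Bmal1-deficient, and was also at 0 in 4 libraries of the other groups. Those labels are therefore used as given and were not verified by the table. Values are the authors' normalized read counts, which proved to be whole reads times a step for each library, and depth is the sum of the reads so recovered. It was 4082276 to 6678645 reads per library, of which the proteasome genes held 0.125% to 0.171%. Neutrophil markers were detected in every library, with none of 10 at 0, and red cell, platelet, monocyte and B cell transcripts were present beside them.

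The proteasome is the barrel-shaped protease that degrades ubiquitin-tagged proteins. Its 20S core is built from alpha rings (Psma genes), which gate the entrance, and beta rings (Psmb genes), which hold the active sites. The 19S cap (Psmc genes and most Psmd genes) binds ubiquitin chains, removes them and threads the substrate in with a ring of ATPases (Psmc genes). In white blood cells and under interferon, the active-site subunits Psmb5, Psmb6 and Psmb7 are replaced in new particles by Psmb8, Psmb9 and Psmb10, which makes the immunoproteasome that feeds peptides to MHC class I. The PA28 activators (Psme1, Psme2 and Psme3) and PA200 (Psme4) can take the place of the 19S cap. NRF1, the product of Nfe2l1, raises subunit genes through antioxidant response elements when proteasome activity is short.

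Of the 44 genes, 38 had a promoter in the RefSeq table, 300 bases long from 250 before to 50 after the start site (GRCm38.p6, 41 promoters). Motifs were searched on both strands. A gene counted if any of its promoters matched, while the share over all was taken per promoter, so the measures differ slightly. The antioxidant response element TGACNNNGC was found in 6 of the 38 genes (Psmb5, Psmb6, Psmc6, Psmd12, Psmd9 and Psme4) and in 12.39% of all 32851 promoters. The E-box CACGTG, the sequence that the BMAL1 and CLOCK pair binds, was found in 4 (Psma4, Psmb10, Psmd9 and Psme3) and in 7.15% of all promoters. The interferon-stimulated response element GAAANNGAAA was found in 4 (Psmb3, Psmd4, Psmd9 and Psme1) and in 3.44%, and the gamma-activated site TTCNNNGAA in 2 (Psmb8 and Psmd2) and in 8.3%. These matches describe the letters in the windows and do not show binding. Below are 4 promoters, read 5′ to 3′ on the gene's own strand. The first are those of Psme3, the 1 gene that passed the test, and Psmb10, which did not pass. Values of Psmb10 ran low in the libraries labelled Bmal1-deficient and also in the Cxcr4-deficient ones. Psma4 and Psmd9, which hold the same E-box, are not shown. Their means were 12.7 and 2.67 under the Bmal1 label, beside 21.4 and 1.94 in WT ZT5, with no call. The last promoters shown are those of Psmb5, a subunit with an antioxidant response element, and Psme1, an interferon-inducible activator. Capitals mark the E-box in Psme3 and Psmb10, the antioxidant response element in Psmb5, and the interferon-stimulated response element in Psme1, which reads GAAANNGAAA on the other strand. The regions are chr11:101315963-101316262 (plus strand) for Psme3, chr8:105938343-105938642 (minus strand) for Psmb10, chr14:54617946-54618245 (minus strand) for Psmb5 and chr14:55578244-55578543 (plus strand) for Psme1. The first base of the match lies at -44, -116, -47 and 9 relative to the start site, in that order.
Psme3: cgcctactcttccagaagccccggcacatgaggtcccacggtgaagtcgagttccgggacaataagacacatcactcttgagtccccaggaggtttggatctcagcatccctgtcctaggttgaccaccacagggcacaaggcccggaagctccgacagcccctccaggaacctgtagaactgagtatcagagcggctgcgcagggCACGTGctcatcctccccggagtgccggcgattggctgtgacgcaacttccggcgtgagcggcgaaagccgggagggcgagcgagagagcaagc
Psmb10: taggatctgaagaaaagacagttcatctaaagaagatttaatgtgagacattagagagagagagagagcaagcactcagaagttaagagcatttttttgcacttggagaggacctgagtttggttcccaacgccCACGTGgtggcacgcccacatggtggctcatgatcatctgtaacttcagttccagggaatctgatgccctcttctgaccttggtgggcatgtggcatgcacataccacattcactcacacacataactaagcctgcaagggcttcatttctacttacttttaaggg
Psmb5: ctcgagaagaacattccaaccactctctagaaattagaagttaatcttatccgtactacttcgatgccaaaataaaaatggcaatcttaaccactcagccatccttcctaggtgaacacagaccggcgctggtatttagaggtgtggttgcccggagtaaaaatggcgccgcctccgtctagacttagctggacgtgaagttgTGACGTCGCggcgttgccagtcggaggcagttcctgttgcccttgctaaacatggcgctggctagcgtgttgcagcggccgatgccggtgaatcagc
Psme1: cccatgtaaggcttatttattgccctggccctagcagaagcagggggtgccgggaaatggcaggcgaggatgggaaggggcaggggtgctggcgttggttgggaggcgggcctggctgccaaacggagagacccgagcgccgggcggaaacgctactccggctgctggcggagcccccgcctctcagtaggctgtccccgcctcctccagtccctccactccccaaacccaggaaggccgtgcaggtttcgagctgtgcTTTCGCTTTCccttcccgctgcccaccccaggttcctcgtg

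Across all 5 groups, 1 of the 44 genes differed by limma's moderated F test at an adjusted p under 0.05, where 7.85% of the 11255 genes tested did. That gene was Psme3, which encodes PA28γ, a nuclear activator of the 20S core that acts without ubiquitin. At an unadjusted p under 0.05 the F test took 2 of 44 genes, and 22.4% of all genes tested. The shares of proteasome genes (2.27% and 4.55%) were below those of the table as a whole. The other 43 genes are given below as values, ordered by their place in the particle.

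**Figure D1:**
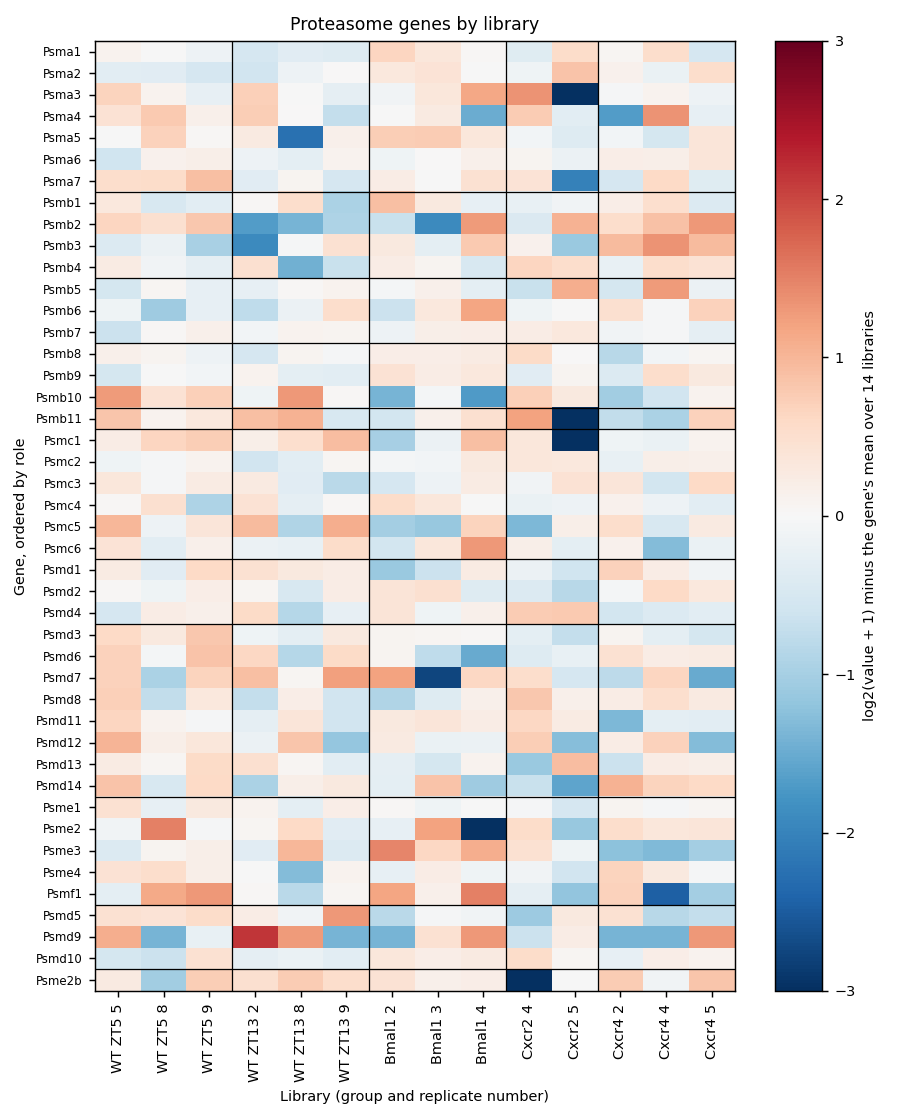
Heat map of the 44 proteasome genes (rows, ordered by role with lines between classes) in the 14 libraries (columns, by group and replicate number). Colour is log2(value + 1) minus the gene's mean over the 14 libraries, and colours end at 3 in either direction. The row of Psme3 is low in all 3 Cxcr4 libraries, while most other departures fall in single libraries, such as Psma3 and Psmc1 in Cxcr2 replicate 5.

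Psme3 lies at chr11:101316213-101323537 on the plus strand (GRCm38, GENCODE M21). Its normalized read count was 72.1, 102 and 108 in WT ZT5, and 39.9, 37.6 and 46.7 in the Cxcr4-deficient libraries. The 3 Cxcr4-deficient libraries were the lowest of all 14, and no library of another group overlapped them. The mean was 41.4 ± 4.71 (SD, n = 3) without Cxcr4 and 94.0 ± 19.3 (n = 3) in WT ZT5. Psme3 fell by 1.15 on the log2(value + 1) scale (standard error, SE, 0.31, adjusted p = 0.0213, limma with Benjamini-Hochberg adjustment over all genes tested). It was the only proteasome gene called in that comparison, in which 4.15% of all genes were called lower and 8.2% in either direction. In these bulk samples, fewer cells of a type and less RNA per cell cannot be told apart.

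The call of Psme3 between Cxcr4-deficient and WT ZT5 libraries did not hold under every setting. The adjusted p lay between 0.00321 and 0.274 over 27 alternatives, and the call was kept in 21 of them. Some of these fits left out only libraries of other groups, which cannot change the log2 difference. The call was kept in all of those, so the tally overstates how well it held. It was lost with the replicate number as a block (-0.77, adjusted p = 0.274) and with limma-voom on recovered reads (-1.12, 0.0968). Leaving out WT ZT5 replicate 8 or 9, or Cxcr4 replicate 2 or 4, also ended it, with adjusted p of 0.0607, 0.0869, 0.0635 and 0.0775, while the log2 difference stayed between -1.04 and -1.12 without those libraries.

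In the libraries labelled Bmal1-deficient, Psme3 stood at 265, 146 and 205, with a mean of 206 ± 59.2 (n = 3). All 3 lay above the 3 WT ZT5 libraries. The log2 difference was 1.10 (SE 0.31), but the adjusted p was 0.0932 and the gene was not called. Without WT ZT13 replicate 8, a library that is in neither group but feeds the shared estimate of spread, the adjusted p was 0.0424. In the libraries labelled Cxcr2-deficient, Psme3 was 131 and 87.3, with a mean of 109 ± 31.2 (n = 2). At ZT13 in WT it was 75.3, 190 and 71.1, with a mean of 112 ± 67.6 (n = 3), so 1 library stood far above the others. Both groups overlapped WT ZT5, and the log2 differences were 0.21 (SE 0.35) and 0.12 (SE 0.31).

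The mutant groups share the Cre and the hour, and Psme3 differed among them. It was lower without Cxcr4 than in the libraries labelled Bmal1-deficient by -2.25 (SE 0.31, adjusted p = 2.87e-05 by limma), and than in those labelled Cxcr2-deficient by -1.36 (SE 0.35, adjusted p = 0.0234). In these comparisons 2.51% and 1.85% of all genes were called lower (5.7% and 4.13% in either direction), and Psme3 was the 1 proteasome gene called in each. The first call was kept in all 27 alternatives, with adjusted p of at most 0.000690. The second was kept in 23. Both tallies count fits that left out only libraries of other groups, which cannot change the log2 difference. The second call was lost with limma-voom on recovered reads (-1.37, adjusted p = 0.113) and without Cxcr2 replicate 4 (-1.06). It was also lost without Cxcr4 replicate 2 (-1.33, adjusted p = 0.0612) or 4 (-1.29, 0.0762). Between the libraries labelled Bmal1-deficient and Cxcr2-deficient the log2 difference was 0.89 (SE 0.35, adjusted p = 0.521), not a call. In order of mean the groups ran from Bmal1 through WT ZT13, Cxcr2 and WT ZT5 to Cxcr4, and the 3 in the middle overlapped. WT ZT13 also overlapped the Bmal1 label, through its replicate 8.

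Red cell transcripts, like Psme3, were lowest in the Cxcr4-deficient libraries. Summed values of the 13 erythroid markers in the table (of 15 listed) were 4189 to 13974 in the Cxcr4-deficient libraries, against 21475 to 67511 in WT ZT5, 28600 to 110525 in WT ZT13, 59958 to 119598 under the Bmal1 label and 62010 to 66991 under the Cxcr2 label. Of the 13, 9 were called lower in Cxcr4-deficient than in WT ZT5 libraries and none higher. The library with the highest erythroid sum, Bmal1 replicate 2, also had the highest Psme3, and WT ZT13 replicate 8 ranked 2 of 14 in that sum and 3 of 14 in Psme3. Cxcr2 replicate 4 ranked 5 in both, and several other libraries had near ranks, such as WT ZT5 replicate 5 (11 in the erythroid sum and 10 in Psme3). The ranks lay furthest apart in WT ZT13 replicate 9 (3 in the erythroid sum and 11 in Psme3) and Bmal1 replicate 4 (8 and 2). Platelet marker sums were 38.0 to 89.7 in the Cxcr4-deficient libraries and 43.6 to 616 in WT ZT5, and 0 of 7 platelet markers were called in that comparison. Their median log2 difference was -2.31, with 0 of 7 positive and 4 at an unadjusted p under 0.05 by limma. Neutrophil marker sums were 33175 to 42903 without Cxcr4 and 10194 to 18351 in WT ZT5. Monocyte sums were 6170 to 7137 and 3166 to 4131, and B cell sums 125 to 245 and 547 to 4393, in that order. The monocyte sum was higher without Cxcr4, but most of its genes went the other way. Of the 15 monocyte markers tested, 9 were called lower and 3 higher, with a median log2 difference of -2.57. Without Bmal1 replicate 2 and WT ZT13 replicate 8, the 2 libraries richest in erythroid transcripts, Psme3 remained called between Cxcr4-deficient and Bmal1-labelled libraries (-2.05, limma adjusted p = 1.00e-04). The Bmal1-labelled libraries that remained still had erythroid sums of 66645 and 59958, against 4189 to 13974 without Cxcr4. This fit therefore does not remove the difference in red cell transcripts and cannot show their part. Neither library left out is in the comparisons of Cxcr4-deficient libraries with WT ZT5 or the Cxcr2 label, whose log2 differences cannot change. The part of these other cells in the Psme3 differences was not tested.

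**Figure D2:**
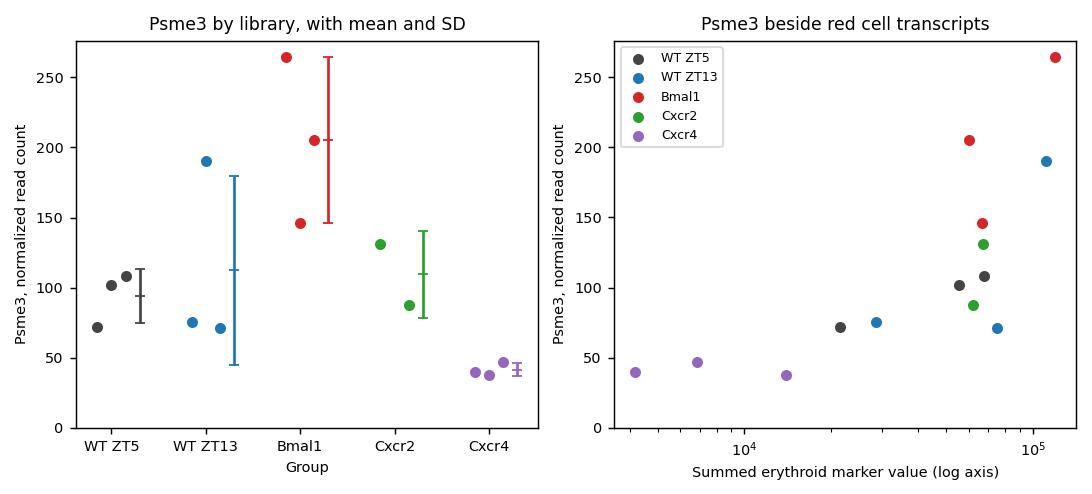
Left, normalized read count of Psme3 in each library (points) by group, with mean and SD beside each group. Right, the same values against the summed value of the erythroid markers on a log axis; the 3 Cxcr4 libraries are lowest on both axes, and Bmal1 replicate 2 is highest on both.

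The other activators did not pass the test in any comparison. Psme1 (PA28α), an interferon-inducible activator that pairs with Psme2, was among the steadiest genes measured. Its value was 105, 64.2 and 93.5 in WT ZT5, 80.8, 61.3 and 86.5 at ZT13, 77.2, 69.2 and 75.3 under the Bmal1 label, 74.3 and 53.3 under the Cxcr2 label, and 80.5, 73.6 and 79.3 without Cxcr4. The groups overlapped, and its log2 differences from WT ZT5 ran from -0.44 to -0.14. Psme2 (PA28β) was more uneven, at 19.1, 60.6 and 19.8 in WT ZT5, and 17.0, 48.7 and 1.22 under the Bmal1 label. The last of these values rests on 7 reads. Its log2 difference for that group was -1.23 (SE 0.74), and it was 0.71 (SE 0.83) higher without Cxcr4 than under the Cxcr2 label, neither of them a call. Psme4 (PA200), a large nuclear activator linked to acetylated histones, was 88.3, 94.4 and 74.0 in WT ZT5 and 65.1, 26 and 70.9 at ZT13. The ZT13 libraries all lay below WT ZT5, with a log2 difference of -0.77 (SE 0.32, limma adjusted p = 0.383). Psmf1, whose product PI31 inhibits the core in vitro, was scarce, at 3.43, 11 and 12.4 in WT ZT5 and 7.79, 0 and 1.67 without Cxcr4, a log2 difference of -1.64 (SE 0.87, adjusted p = 0.292). Its 0 in Cxcr4 replicate 4 allows a value of up to 0.610 (3 reads, counting error only).

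The alpha ring, which gates the core, had 0 of 7 genes called in any comparison. Its medians of log2 difference from WT ZT5 were -0.39 at ZT13, 0.29 under the Bmal1 label, -0.23 under the Cxcr2 label and -0.21 without Cxcr4. Psma2 had the highest log2 difference of the ring in all 4, and its value was 40.04, 39.3 and 35.4 in WT ZT5, against 63.0, 67.3 and 49.6 (Bmal1), 45.6 and 91.4 (Cxcr2) and 54.9, 43.7 and 72.6 (Cxcr4). All 8 mutant libraries lay above WT ZT5, with log2 differences of 0.63 (SE 0.32), 0.74 (SE 0.35) and 0.54 (SE 0.32) that did not pass (adjusted p 0.395, 0.356 and 0.357, limma). These 3 differences share their control. Psma7 had the lowest log2 difference of the ring at ZT13 (-0.92), under the Cxcr2 label (-1.48) and without Cxcr4 (-0.75), and Psma4 under the Bmal1 label (-0.87). Psma7 had 21.1, 21.3 and 27.8 in WT ZT5 and 19.2 and 2.76 under the Cxcr2 label, so the size of that difference rests on replicate 5.

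Among the structural beta subunits, which carry no active site (Psmb1, Psmb2, Psmb3 and Psmb4), 0 of 4 were called in any comparison. Psmb3 came nearest without Cxcr4, with 31.6, 41.9 and 31.6 against 11.8, 13.9 and 7.62 in WT ZT5. The groups did not overlap, and the log2 difference was 1.60 (SE 0.59, adjusted p = 0.102). It passed with limma array weights (1.75, adjusted p = 0.0253) and in a fit of only the groups compared (adjusted p = 0.0344). The Cxcr2-labelled libraries (17.6 and 6.89) lay below the Cxcr4-deficient ones as well. Psmb2 held few reads, with 4.83, 4.22 and 5.56 in WT ZT5 and 0.175, 0.423 and 0.974 at ZT13, each of the last 3 resting on a handful of reads. Its log2 difference at ZT13 was -1.97 (SE 0.86, adjusted p = 0.402).

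The constitutive active-site genes Psmb5 (chymotrypsin-like activity), Psmb6 (caspase-like) and Psmb7 (trypsin-like) had positive log2 differences from WT ZT5 in all 4 comparisons, between 0.01 and 0.86, and 0 of 3 were called in any. Psmb6 had its largest log2 difference without Cxcr4, at 20.6, 14 and 24 against 13.2, 6.33 and 11.9 in WT ZT5, a difference of 0.86 (SE 0.58, adjusted p = 0.434), while the highest library was Bmal1 replicate 4 at 34.1. Psmb7 was steady, between 30.3 and 59.3 over the 14 libraries. Psmb5 was between 13.7 and 55.3, with single high libraries in the Cxcr2 label (48.2) and without Cxcr4 (55.3).

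The immunoproteasome genes were detected in every library and 0 of 3 were called in any comparison. Psmb8 (chr17:34197721-34201454, plus strand) and Psmb9 (chr17:34181987-34187764, minus strand) lie close together in the MHC region. Psmb9 shares 212 exon bases with the peptide transporter gene Tap1 on the other strand, and Psmb8 shares 498 with the antisense gene Gm20496. Reads cannot be told apart in those stretches. Psmb8, the counterpart of Psmb5, had 97.4, 92.0 and 78.7 in WT ZT5, 60.6, 92.8 and 85.0 at ZT13, 100, 99.9 and 103 under the Bmal1 label, 129 and 87.1 under the Cxcr2 label, and 48.1, 81.8 and 90.6 without Cxcr4. Its log2 differences from WT ZT5 ran from -0.32 to 0.25, and each 95% interval lay within a 2-fold change in either direction. Psmb9, the counterpart of Psmb6, had 28.7, 41.4 and 39.8 in WT ZT5 and 57.2, 48.9 and 52.4 under the Bmal1 label. Those groups did not overlap, but the log2 difference of 0.53 (SE 0.33) had an adjusted p of 0.513. Psmb10, the counterpart of Psmb7, had the lowest values of the 3. It had 15, 8.02 and 9.89 in WT ZT5, 1.51, 5.39 and 1.04 under the Bmal1 label, and 2.20, 3.46 and 6.14 without Cxcr4. The Bmal1-labelled and Cxcr4-deficient groups lay wholly below WT ZT5, with log2 differences of -1.86 (SE 0.77, adjusted p = 0.273) and -1.32 (SE 0.77, adjusted p = 0.355). Its values of 5.06, 15.4 and 5.85 at ZT13, and of 9.92 and 7.12 under the Cxcr2 label, overlapped WT ZT5. Psmb10 had between 6 and 118 reads in a library.

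Set as ratios of values within a library, Psmb8 to Psmb5 averaged 4.85 ± 1.38 (SD) in WT ZT5, 3.61 ± 0.42 at ZT13, 4.80 ± 0.85 under the Bmal1 label and 3.08 ± 1.56 without Cxcr4 (n = 3 each). Under the Cxcr2 label the ratios were 9.47 and 1.80. Psmb9 to Psmb6 averaged from 2.68 to 4.01 and Psmb10 to Psmb7 from 0.05 to 0.28. The summed immunoproteasome over the summed constitutive values was 1.91 ± 0.45 in WT ZT5 and 1.36 ± 0.39 without Cxcr4 (n = 3 each), with libraries from 1.54 to 2.41 and from 1.02 to 1.79, so the groups overlapped. These ratios do not compare levels between genes, since exon lengths differ. Per kilobase of annotated exon, mean levels over the 14 libraries were 26.3 for Psmb8 and 27.0 for Psmb5, 11.8 for Psmb9 and 8.42 for Psmb6, and 4.02 for Psmb10 and 14.1 for Psmb7. On that scale the immunoproteasome form was about as high as the standard form for the first pair, higher for the second and lower for the last. The lengths join all annotated exons of a gene (3381 bases for Psmb8 and 899 for Psmb5), which can exceed the transcript present. These values therefore do not settle which form of a pair was higher.

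**Figure D3:**
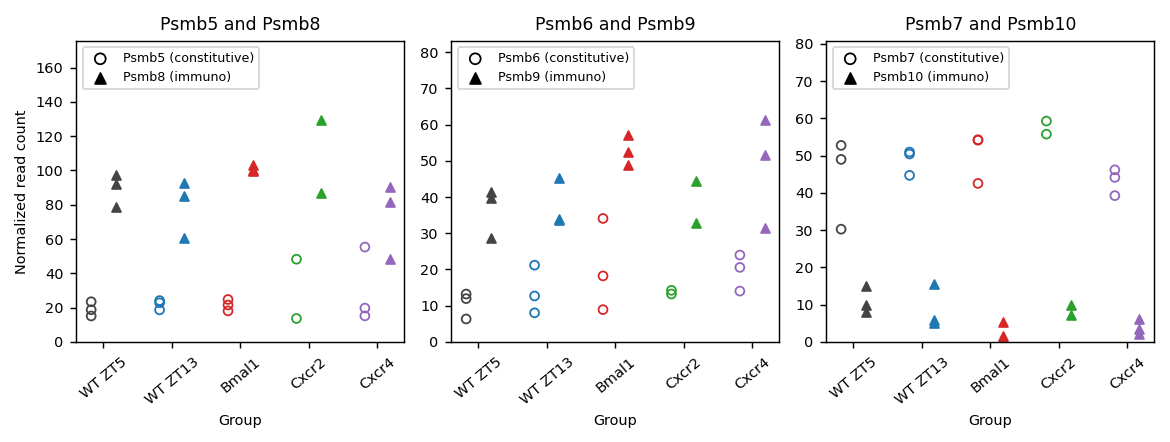
Normalized read counts of each constitutive active-site gene (open circles) and its immunoproteasome counterpart (filled triangles) in every library, by group. Psmb8 lies above Psmb5 in every library, while Psmb10 lies below Psmb7 in every library, with its lowest values under the Bmal1 label (1.04 to 5.39).

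Psmb11, the beta subunit of the thymus cortex, stood at 0.919 to 35.3 in these blood libraries. It was not called anywhere. The summed value of the 14 genes of the 20S core was 363 to 394 in WT ZT5, 338 to 361 at ZT13, 452 to 462 under the Bmal1 label, 439 and 442 under the Cxcr2 label and 392 to 521 without Cxcr4. The libraries of the Bmal1 and Cxcr2 labels were all above both WT groups, and those without Cxcr4 overlapped WT ZT5. This is a description of a sum over genes, and a sum is led by the most abundant of them. The sum of the 3 immunoproteasome genes was 128 to 141 in WT ZT5 and 154 to 159 under the Bmal1 label. It was 111 to 142 at ZT13, 139 and 172 under the Cxcr2 label and 81.9 to 148 without Cxcr4, and these 3 groups overlapped WT ZT5.

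The 19S cap also had 0 of 17 genes called in any comparison. Most of its log2 differences from WT ZT5 were negative, with medians of -0.23 at ZT13 (3 of 17 positive), -0.48 under the Bmal1 label (6 of 17), -0.39 under the Cxcr2 label (4 of 17) and -0.30 without Cxcr4 (6 of 17). The medians of all genes tested were -0.07, -0.10, -0.07 and -0.11, in the same order. The core medians were -0.03 (0.06 after quantile normalization), 0.26, 0.05 and 0.25, and the other signs held under each scaling tried. All 4 comparisons share the WT ZT5 libraries, and no test was made on these medians. The summed value of the 17 cap genes was 429 to 553 in WT ZT5 and 410 to 514 over the other 4 groups, and every group overlapped WT ZT5.

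Among the 6 ATPases that unfold and thread substrates, Psmc2 was the steadiest of all 44 genes. Its value was 92.9, 99.0 and 109 in WT ZT5, 68.3, 81.8 and 105 at ZT13, 97.7, 95.8 and 126 (Bmal1), 128 and 128 (Cxcr2) and 86.5, 114 and 113 (Cxcr4). It was the 1 gene whose 95% interval lay inside a 2-fold change in all 7 comparisons. Psmc1 had 13.5, 18.4 and 19.8 in WT ZT5 and 14.8 and 0.459 under the Cxcr2 label, the last from 2 reads, which gave a log2 difference of -1.91 (SE 0.81, adjusted p = 0.286). Psmc5 had the lowest log2 difference of the ATPases under the Bmal1 label (-0.90) and Psmc4 the highest there (0.43).

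Of the large base scaffolds and the ubiquitin receptor, Psmd4, which binds ubiquitin chains, had 22.2, 37.8 and 35.4 in WT ZT5, 54.7 and 55.6 under the Cxcr2 label and 21.6, 23.8 and 25.5 without Cxcr4. The libraries of those mutant groups did not overlap, and the log2 difference was -1.19 (SE 0.43, adjusted p = 0.133). Psmd2, a scaffold of the base, differed the other way, with 43.7, 69.4 and 57.3 without Cxcr4 and 34.2 and 25.3 under the Cxcr2 label, a log2 difference of 0.90 (SE 0.37, adjusted p = 0.191). Neither passed.

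In the lid, which removes ubiquitin, the medians of the 8 genes were -0.43, -0.50, -0.59 and -0.51 in the 4 comparisons with WT ZT5. Psmd14, the deubiquitinase of the lid, had 34.3, 13.1 and 28.8 in WT ZT5, 11.2 and 5.51 under the Cxcr2 label and 39.1, 30.3 and 28.7 without Cxcr4. The Cxcr2 values lay below both of the other groups. The log2 difference was -1.46 (SE 0.62, adjusted p = 0.285) from WT ZT5, and Cxcr4-deficient minus Cxcr2-labelled it was 1.90 (SE 0.62, adjusted p = 0.0851). Psmd11, a scaffold of the lid, had 13.4, 28.7 and 28.1 without Cxcr4, below the 55.8, 38.2 and 34.4 of WT ZT5, the 43.4, 45.4 and 41.1 of the Bmal1 label and the 54.4 and 42.0 of the Cxcr2 label. Its 3 log2 differences were -0.89 (SE 0.37), -0.93 (SE 0.37) and -1.08 (SE 0.42), with adjusted p of 0.155, 0.155 and 0.163. Psmd6 was lowest under the Bmal1 label (13.5, 7.07 and 3.83, against 21.2, 12.0 and 23.7 in WT ZT5), with a log2 difference of -1.22 (SE 0.60, adjusted p = 0.377), and the groups overlapped.

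The chaperones that help assemble the 19S base, Psmd5, Psmd9 and Psmd10, were not called either. Psmd9 had the lowest mean value of the 44, 2.69, and was at 0 in 5 libraries, where a count of 0 allows up to 0.504 to 0.731. Psmd10, also known as gankyrin, was 24.9, 23.0 and 50.5 in WT ZT5 and 46.4, 41.8 and 43.8 under the Bmal1 label (log2 difference 0.50). Psme2b is a single-exon gene that matches the symbol rule, has the name of a copy of Psme2 and can share reads with it. Its value was 0.220 in Cxcr2 replicate 4, from 1 read, and 18.4 in replicate 5. The log2 differences that rest on this pair were -1.98 from WT ZT5, 2.50 for Cxcr4-deficient minus Cxcr2-labelled libraries and 2.26 for Bmal1-labelled minus Cxcr2-labelled ones (limma adjusted p = 0.226, 0.0647 and 0.366).

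**Figure D4:**
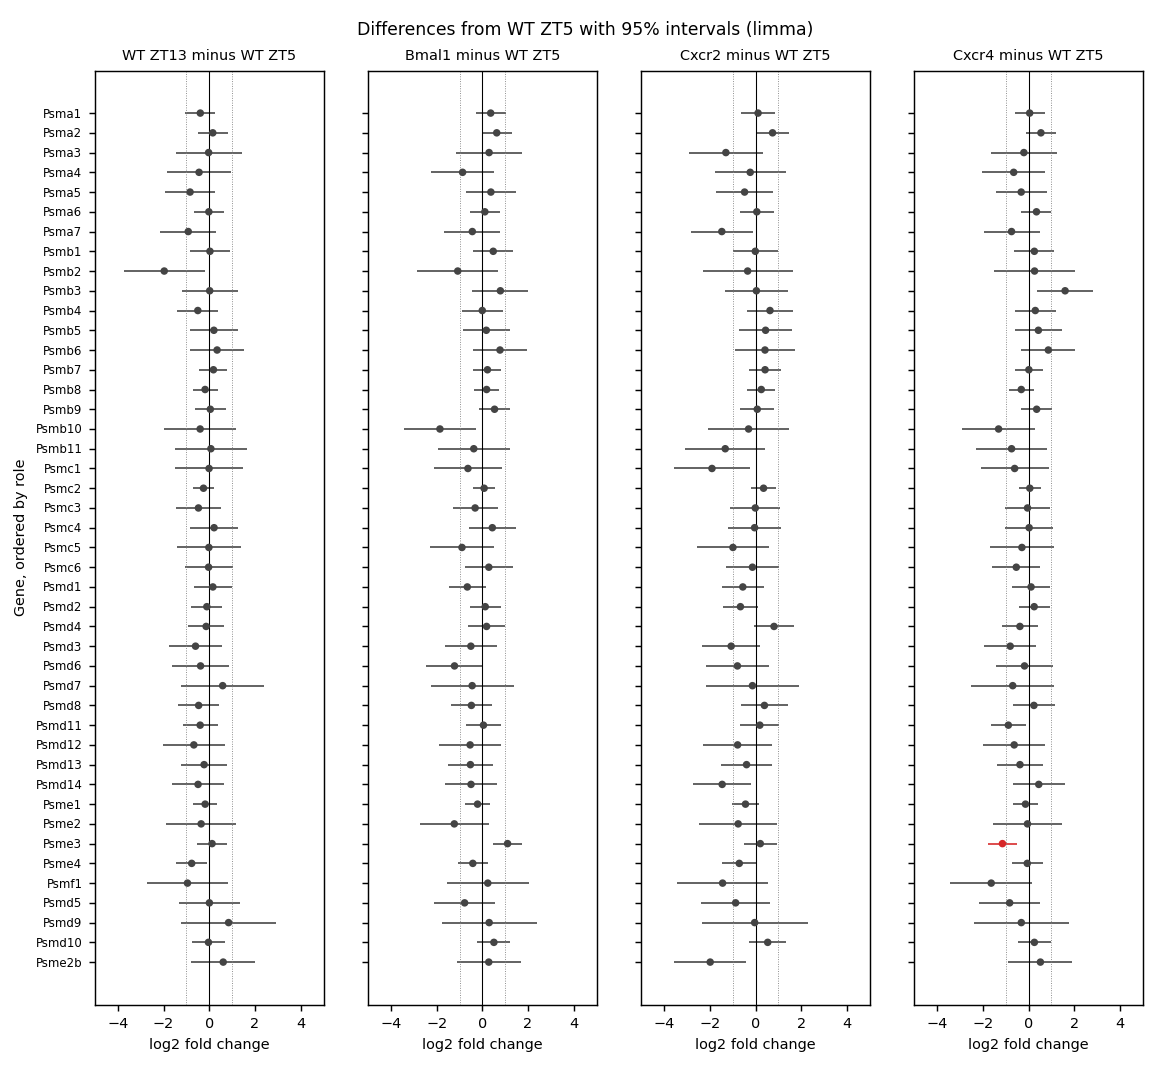
Log2 differences of each proteasome gene from WT ZT5 (points) with 95% intervals from limma (lines), in 4 panels by group; dotted lines mark a 2-fold change and red marks the 1 call, Psme3 without Cxcr4. Most intervals reach past 2-fold, and that of Psmc2 is the narrowest in every panel.

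Counted over the 44 genes, 0 passed at ZT13 against WT ZT5, where 0.08% of all genes tested did, 0 under the Bmal1 label (1.02% of all genes) and 0 under the Cxcr2 label (0.666%). Between the Bmal1 and Cxcr2 labels 0 passed (0.133%). At an unadjusted p under 0.05 the counts were 2 of 44 at ZT13 (10.6% of all genes), 2 under the Bmal1 label (13.5%), 5 under the Cxcr2 label (13.5%), 3 without Cxcr4 (20.9%) and 3 between the Bmal1 and Cxcr2 labels (8.01%). Cxcr4-deficient minus Cxcr2-labelled libraries gave 7 (16.7%), and minus Bmal1-labelled ones 3 (18.8%). edgeR's quasi-likelihood test, DESeq2 and limma-voom on recovered reads also gave 0 in the 4 comparisons with no call. Groups did not overlap for 4 of the 44 genes at ZT13 (16.5% of all genes). The counts were 8 under the Bmal1 label (17.9%), 14 under the Cxcr2 label (30.4%) and 9 without Cxcr4 (26.2%), beside 18.2%, 31.8% and 20.5% of the 44. Between mutants they were 14 for Cxcr4 with Cxcr2 (33.4%), 9 for Cxcr4 with Bmal1 (23.6%) and 14 for Bmal1 with Cxcr2 (21.7% of all genes and 31.8% of the 44).

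A call that is missed does not show that a gene stayed the same, and the 95% intervals give what the data allow. An interval lay inside a 2-fold change in either direction for 13 of 44 genes at ZT13, 9 under the Bmal1 label, 7 under the Cxcr2 label and 10 without Cxcr4. Psma6, an alpha ring gene, and Psme1 were inside it in 6 of the 7 comparisons, and 27 genes were inside it in none. The median distance from the estimate to the end of its interval was 1.04 on the log2 scale, and 1.17 where the Cxcr2 label, with 2 libraries, took part.

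The spread between libraries of a group was larger than counting error for each gene. The median within-group SD of the 44 genes was 0.60 on the log2 scale (quartiles 0.40 and 0.87), beside 0.76 in the 8293 other genes of the same range of mean value. Psmc2 (0.21), Psmb7 (0.23), Psme1 (0.24) and Psma6 (0.25) were the steadiest, and Psmd9 (1.44), Psmd7 (1.27), Psme2 (1.25) and Psma3 (1.24) the least steady. Of 616 values, 13 in 9 genes were under 10% of the highest in their group, and they fell in 9 of the 14 libraries. Psma3, an alpha ring gene, was 1.38 (6 reads) in Cxcr2 replicate 5 and 71.4 in replicate 4. Psmd7, a lid gene, was 0.372 (2 reads) in Bmal1 replicate 3 and 20.3 in replicate 2.

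**Figure D5:**
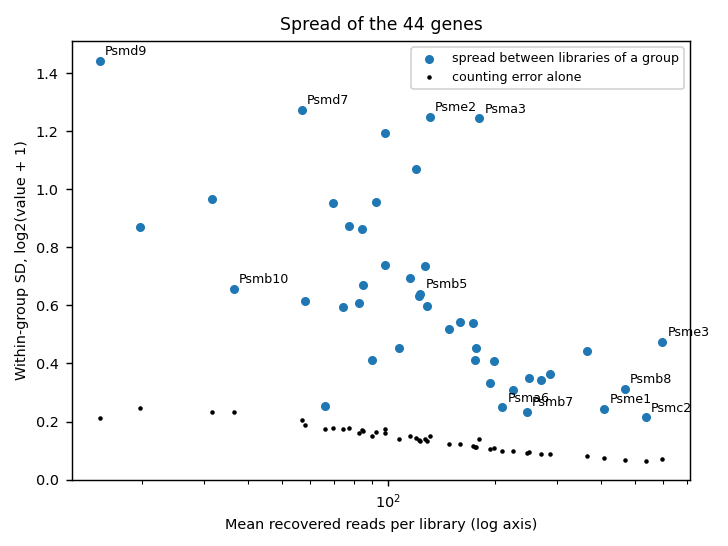
Within-group SD of log2(value + 1) for each of the 44 genes (large points) against its mean recovered reads per library on a log axis, with the SD that counting error alone would give (small points). Every large point lies above its small one, Psmd9 is highest at 1.44 and Psmc2 lowest at 0.21.

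Partners of the proteasome that the symbol rule does not take were read from 5 lists. In the list of class I antigen processing, 14 of 14 genes were tested, and 1 was called higher and 2 lower without Cxcr4 than in WT ZT5, where 8.2% of all genes tested were called in either direction. The list's median log2 difference was -0.07, beside -0.11 over all genes tested. B2m, the light chain of MHC class I, rose from 507 ± 77.2 to 826 ± 64.0 (n = 3 each), a log2 difference of 0.71 (SE 0.17, adjusted p = 0.00697, limma). The chaperones Canx (calnexin) and Calr (calreticulin), which load class I in the endoplasmic reticulum, fell by 1.17 (SE 0.24, adjusted p = 0.00255) and 0.81 (SE 0.23, adjusted p = 0.0302). B2m was also 815 ± 38.6 (n = 2) under the Cxcr2 label, a log2 difference of 0.69 that did not pass (adjusted p = 0.0807). In the list around NRF1, 14 of 14 were tested, with a median of -0.30 without Cxcr4. Mafg, a small MAF partner of NRF1 and NRF2, rose by 1.07 (SE 0.27, adjusted p = 0.0106) without Cxcr4, and Ddi2, the protease that releases NRF1 from the membrane, fell by 1.08 (SE 0.29, adjusted p = 0.0204). Ddi2 is also on the list of shuttle factors, where it was the only one of 11 called in that comparison (median -0.63). Nfe2l1 itself was not called; its log2 difference was -0.70 at ZT13 and -0.81 under the Cxcr2 label (adjusted p = 0.323 and 0.212). Against the Bmal1 label, Cxcr4-deficient libraries had lower Zfand2a, a proteasome partner of the stress response (-1.35, SE 0.39, adjusted p = 0.0403), and higher Mafg (0.92, SE 0.27, adjusted p = 0.0398). That list of further components and partners had 11 of 14 genes tested and no other call. The ubiquitin genes had 0 of 6 called in any comparison, with a median of 0.07 without Cxcr4. Ubb, which encodes polyubiquitin, was 1141 ± 194 under the Bmal1 label and 755 ± 135 in WT ZT5 (n = 3 each), a log2 difference of 0.60 (SE 0.18, adjusted p = 0.124). Of the 16 B cell markers, 12 were called lower without Cxcr4 than in WT ZT5 and 0 higher, with a median log2 difference of -3.96. Their summed value was 4393 in WT ZT5 replicate 5, against 547 and 1193 in replicates 8 and 9. The shifts of erythroid, neutrophil, monocyte, platelet and B cell markers stand beside these calls too, and the part of those cells in the calls was not tested.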

How the data were processed

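Per the labels' protocols, polyadenylated RNA was amplified with a NuGen single-cell kit (Ovation) and made into TruSeq libraries. The submitters' processing notes name CASAVA 1.8.2, cutadapt, RSEM 1.2.3 and GRCm38. How values were normalized is not given in those sources. The authors deposited normalized read counts per gene and library (a signal, with coverage depth scaled out). Within a library, 100% of values were whole multiples of a single step (tolerance 1e-06 reads), and dividing by that step gave back reads.

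All 14 libraries went into 1 limma fit (version 3.58.1, R 4.3.3) of log2(value + 1), with the prior variance following the mean level. Tests covered the 11255 genes whose mean value reached 1. P-values were adjusted over all of them by the Benjamini-Hochberg method, and an adjusted p under 0.05 was a call. This scale understates changes of low genes. The code of the fit was run on simulated counts with planted changes. Those counts had the same dispersion for every gene, so the run does not measure error rates in these data. Symbols matched 11188 of 11288 identifiers. Gene coordinates and exon lengths were taken from GENCODE M21. Whether counting used strand is not stated either, so reads of Psmb7 and Nek6, Psmd13 and Sirt3, and Psmc3 and Slc39a13 cannot be told apart where they overlap.

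Genes named were the active-site, activator and PI31 genes, every gene called, and the extremes of each class, with others added after their values were seen. The members, lists and alternatives were chosen with earlier results of these data known. Alternatives were another pseudocount (0.1), no filter, a mean of at least 10, quantile, DESeq2 (1.42.0) and TMM scaling, array weights, edgeR 4.0.16, DESeq2 and limma-voom on recovered reads, fits of only the groups in a comparison, the replicate number as a block, and leaving out single libraries. A further alternative, not planned, left out together the 2 libraries of highest erythroid markers.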

Additional observations from a re-analysis of the deposited data

Results flagged for a closer look

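Psme3 was singled out because its level differed between groups that carry different deletions at the same hour and with the same Cre, by a test of that difference itself. Cxcr4-deficient minus Cxcr2-labelled libraries gave -1.36 on the log2 scale (SE 0.35, adjusted p = 0.0234, limma), with all 3 Cxcr4-deficient libraries below both of the others. Cxcr4-deficient minus Bmal1-labelled libraries gave -2.25 (SE 0.31, adjusted p = 2.87e-05), with all 3 below all 3. Erythroid marker sums were lower in the same 3 libraries (4189 to 13974, against 59958 to 119598 in those 2 other groups), and their part in the difference was not tested.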

How the results depend on the processing

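The number of proteasome genes called was recomputed under each alternative. For Cxcr4-deficient against WT ZT5 libraries it was 1, became 2 with array weights and in a fit of only the groups compared (Psmb3 beside Psme3), and 0 with limma-voom. For Cxcr4-deficient against Cxcr2-labelled libraries it was 1 and became 0 with limma-voom. Leaving out each library in turn gave 1 to 2 over all 5 groups, 0 to 1 for Bmal1 and for Cxcr2 against WT ZT5 and for Bmal1 against Cxcr2, 0 to 1 for Cxcr4 against WT ZT5, and 0 to 2 for Cxcr4 against Cxcr2. Without Cxcr2 replicate 4 the added gene was Psma3 (6 reads in the library that remained), and without replicate 5 it was Psme2b (1 read in the library that remained); in such fits the lone library is assumed to vary like the other groups. Without WT ZT13 replicate 8, Psme3 was called for Bmal1 against WT ZT5. The cause of these changes was not tested.

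With the replicate number of the labels as a block, the counts were 0 for Cxcr4 against WT ZT5, 2 for Cxcr4 against Cxcr2 (Psme2b added) and 2 for Cxcr4 against Bmal1 (Psme2 added). Same-numbered libraries did not deviate together over all genes tested (correlations from -0.04 to 0.01). With so few libraries in a group, these correlations cannot show whether the number pairs them.

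Of 4701 gene values under an alternative, 4534 kept sign and call, 147 changed sign with no call in either, 10 gained a call and 10 lost one, and no called value changed sign. Quantile normalization moved the median of all genes by 0.10 to 0.15 in the comparisons with WT ZT5. Leaving out Psmb10 by a mean of at least 10 moved the immunoproteasome median without Cxcr4 from -0.32 to 0.01. Depth limits genes such as Psmd9 (15.2 reads on average) and Psmb2 (19.9).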
